A study of Homo sapiens with 24 samples.

Results

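U3, U8 and U13 are small nucleolar RNAs that act on the precursor of ribosomal RNA, and their counts were followed in HEK293 cells after overexpression of nuclear lamins. The members were the rows of the small RNA table, other than lncRNA rows, that are named SNORD3A, SNORD3B-1, SNORD3B-2, SNORD3C or SNORD3D (the U3 genes), SNORD118 (U8) or SNORD13 (U13), and the windows on the same rows in the ATAC table. This gave 11 rows at 7 loci, out of 175946 rows in the table. U3 accounts for 9 rows at 5 loci, and U8 and U13 have 1 row each. HEK293 is an established human embryonic kidney line, labelled wild type in every group. The groups overexpressed eGFP (the control, GFP below) or the gene of a lamin, a filament protein under the inner nuclear membrane: LMNA, which encodes the A-type lamins, or LMNB1 or LMNB2, which encode the B-type lamins. Each group had 3 replicate libraries of small RNA and 3 of ATAC-seq, which measures how open chromatin is to a transposase, so 24 libraries in all. The labels do not give the vector, the promoter that drives the transgene, the time after transfection or whether replicates were separate cultures, so a p-value measures the spread between these libraries, which may be technical. The tables hold non-coding features, so the cell type was taken from the labels.

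Most box C/D snoRNAs guide methylation of ribosomal RNA and are cut out of the introns of host genes. U3, U8 and U13 differ in both respects: each is transcribed by RNA polymerase II from a promoter of its own, of the kind that snRNA genes use. U3 is the core RNA of the small-subunit processome and pairs with the precursor for the cleavages that release 18S rRNA. U8 is needed for the maturation of the large-subunit rRNAs, and variants of SNORD118 cause a cerebral disease with calcifications and cysts. U13 guides an acetylation of 18S rRNA rather than a methylation.

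The loci are given on GRCh38, the build named in the submitters' processing notes. All U3 genes lie on chromosome 17. SNORD3B-1 spans bases 19061887 to 19062154 on the plus strand, and SNORD3B-2 spans 19063896 to 19064161 on the minus strand, 1741 bp away. The table gives the row at the second of these the name SNORD3B-1, and a longer row over it the name SNORD3B-2. SNORD3D spans 19112396 to 19112661 on the minus strand. SNORD3A, at 19187991 to 19188258 on the plus strand, and SNORD3C, at 19190005 to 19190270 on the minus strand, are 1746 bp apart. SNORD118 spans 8173429 to 8173612 on the minus strand of chromosome 17, inside the RefSeq (GRCh38.p14) span of TMEM107, a protein-coding gene. SNORD13 spans 33513450 to 33513603 on the plus strand of chromosome 8, and no RefSeq gene other than its own overlaps it or any of the U3 loci. These intervals are wider than the RefSeq genes, whose lengths are 217 bp for each U3 gene, 137 bp for U8 and 104 bp for U13. SNORD3A, SNORD3B-1, SNORD3B-2 and SNORD3C each have a second, longer row, called extended below, that contains the first, called the core row.

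Small RNA libraries held 132507051 to 195074742 counts over all rows, and ATAC libraries 156043245 to 290158229 counts over the feature windows. Levels are counts-per-million (CPM) after TMM scaling, which sets the libraries to a common level from the bulk of the features. The TMM factors of GFP libraries 1 and 3 in small RNA were 0.631 and 1.31, and those of the other 10 libraries ran from 0.878 to 1.16, so results against GFP are also given without each of these libraries. As a check of the labels, all 8 tested small RNA features and all 8 ATAC windows over LMNB2 were higher in every LMNB2 library than in every GFP library. Over LMNB1 this held for 3 of 5 features and 3 of 6 windows, and over LMNA for 0 of 1 feature and 1 of 6 windows. A feature outside the transferred sequence checks nothing.

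U3 was the family that differed most with LMNB2. The mean of its 9 rows was 53.7 ± 1.21 CPM (SD, n = 3) in LMNB2 and 30.4 ± 3.36 in GFP. A locus with an extended row enters this mean with both its rows. In between lay LMNA with 38.2 ± 1.70 and LMNB1 with 33.3 ± 1.28. LMNB2 was 1.77 times GFP, LMNA 1.26 times and LMNB1 1.09 times. The order of the groups was LMNB2, LMNA, LMNB1, GFP, although the ranges of LMNB1 (32.5 to 34.8 CPM) and GFP (27.2 to 33.9 CPM) overlapped. In the comparison of LMNB2 with GFP, 4 of the 5 U3 loci rose by edgeR's quasi-likelihood test at an adjusted p under 0.05, over all 33893 features tested. Counted over rows, 7 of the 11 member rows were called, all of them higher and all U3, where the share called among all features was 2.66%. In bulk RNA, more copies per cell and more cells that hold the RNA cannot be told apart. Here and in the other comparisons all 11 rows passed the filter on low counts.

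**Figure D1:**
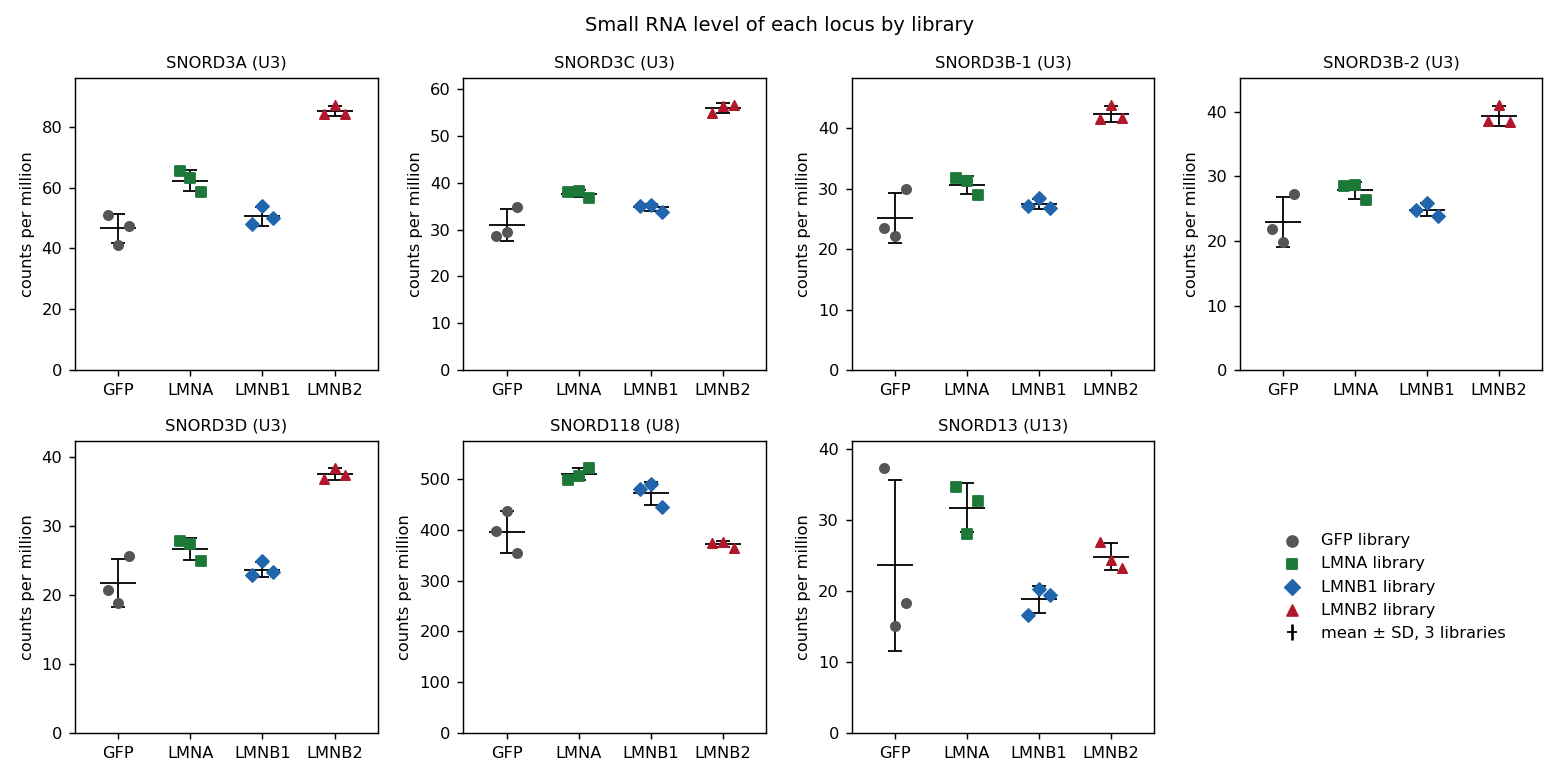
Small RNA level in CPM (y axis, from 0) of the 7 loci in the 4 groups (x axis). Points are libraries and bars the mean ± SD of 3 libraries. At each U3 locus the 3 LMNB2 libraries sit above the other 9, while for U8 and U13 the LMNB2 libraries overlap those of GFP.

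SNORD3A had the highest counts of the U3 genes, 5615 to 13932 per library. Its level was 50.9, 41.3 and 47.5 CPM in the 3 GFP libraries and 84.0, 87.1 and 84.3 in those of LMNB2. The LMNA libraries had 65.3, 63.0 and 58.6 CPM, and the LMNB1 libraries 47.9, 54.1 and 49.9. Every LMNB2 library was above the other 9 and every LMNA library was above GFP and LMNB1, while GFP and LMNB1 overlapped. The log2 fold change of LMNB2 over GFP was 0.87 (SE 0.20), and SNORD3A rose by edgeR's test with an adjusted p of 0.0344.

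SNORD3C, its close neighbour on the opposite strand, had 28.6, 29.5 and 34.8 CPM in GFP and 54.8, 56.4 and 56.6 in LMNB2. Libraries of LMNA had 38.1, 38.2 and 36.7 CPM, and the LMNB1 libraries 35.0, 35.3 and 33.8. The LMNB2 libraries were again the highest, the LMNA libraries were above all GFP libraries, and LMNB1 overlapped GFP. SNORD3C rose in LMNB2 by 0.85 (SE 0.20) on the log2 scale, with an adjusted p of 0.0333 by edgeR.

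SNORD3D had 20.8, 18.9 and 25.7 CPM in GFP and 36.9, 38.5 and 37.4 in LMNB2, and rose by 0.79 (SE 0.20) with an edgeR adjusted p of 0.0433. SNORD3B-2 had 21.9, 19.8 and 27.2 CPM in GFP and 38.5, 41.1 and 38.4 in LMNB2, and rose by 0.78 (SE 0.20) with an edgeR adjusted p of 0.0472. At SNORD3B-1 the values were 23.5, 22.1 and 29.9 CPM in GFP and 41.5, 43.8 and 41.7 in LMNB2. Its log2 fold change of 0.75 (SE 0.20) did not pass, with an edgeR adjusted p of 0.0535. At these 3 genes the highest GFP library was library 3, and no GFP library reached an LMNB2 library. The LMNA libraries lay between 24.9 and 31.7 CPM at these genes and the LMNB1 libraries between 22.9 and 28.4 CPM, and both groups overlapped GFP.

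All 9 U3 rows were higher in every LMNB2 library than in every GFP library, and the same 9 were higher than in every other library of the assay. Among all features tested, 12.1% had the first property and 6.3% the second. For LMNA, 5 member rows (SNORD118 and both rows of SNORD3A and SNORD3C) lay wholly above GFP, against 4.16% of all features, and for LMNB1 1 row (SNORD118) did, against 4.76%.

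The calls in U3 depended on which libraries entered the fit, while the direction of the difference did not. Across 20 alternative analyses of each of the 5 loci, the log2 fold change of LMNB2 over GFP ran from 0.663 to 1.104. An adjusted p under 0.05 was reached in 38 of these 100 fits. The fits reuse the same libraries and near-identical copies, so they are not independent support for the direction. As no GFP library reached an LMNB2 library at these rows, leaving out 1 library could hardly turn the sign. Without GFP library 1 and without GFP library 3, 9 of 11 rows were called in each case, with log2 fold changes for SNORD3A of 0.93 and 0.93. Without LMNA library 3, 4 rows were called, and without any 1 of the other 9 libraries no row was, among them GFP library 2, whose removal gave SNORD3A a log2 fold change of 0.79 and an edgeR adjusted p of 0.0725. No row was called with total counts in place of TMM scaling or with the 6 GFP and LMNB2 libraries alone, and 9 rows were called by DESeq2. The shares of all features called in these alternatives are not given here.

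Against the other lamins, U3 in LMNB2 was higher by a smaller margin that did not pass edgeR's test after adjustment. Over the 5 loci, the log2 fold change of LMNB2 over LMNB1 was 0.75 (SE 0.20) at SNORD3A and 0.62 (SE 0.20) at SNORD3B-1, the highest and the lowest, with edgeR adjusted p of 0.0618 and 0.125. The edgeR fit called 0 of 11 rows, with 9 at an unadjusted p under 0.05, and DESeq2 called 9, in both cases the U3 rows. Among all features edgeR called 2.19%, and the share called by DESeq2 is not given here. Over LMNA the log2 fold change was highest at SNORD3C, 0.57 (SE 0.20, edgeR adjusted p 0.151), and lowest at SNORD3A, 0.45 (SE 0.20, edgeR adjusted p 0.275). There too edgeR called 0 rows, with the 9 U3 rows at an unadjusted p under 0.05, and the share called among all features was 2.01%. DESeq2 called 5 rows, of which 4 were the rows of SNORD3A and SNORD3C, higher in LMNB2, and the other was SNORD118, lower in LMNB2.

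In LMNA, the log2 fold change over GFP at the U3 loci was between 0.28 and 0.42, and in LMNB1 between 0.11 and 0.16. These values moved with single GFP libraries. Without GFP library 1 they ran from 0.21 to 0.47 in LMNA and from 0.071 to 0.18 in LMNB1, without GFP library 2 from 0.19 to 0.35 and from 0.026 to 0.14, and without GFP library 3 from 0.44 to 0.50 and from 0.19 to 0.33, and none was called. None of the 11 rows was called in LMNA against GFP by edgeR, with 0 at an unadjusted p under 0.05, and DESeq2 called 1, SNORD118. In LMNB1 against GFP edgeR called 0 rows, with 0 at an unadjusted p under 0.05, and DESeq2 called 0. The share called by edgeR among all features was 0% and 0.0384%. In LMNB1 against LMNA edgeR called 0 rows, with 1 (SNORD13) at an unadjusted p under 0.05, and DESeq2 called 0. Of all features edgeR called 0.0118%. In the joint test of the 4 groups edgeR called 0 rows, with all 9 U3 rows at an unadjusted p under 0.05 and adjusted p of 0.0677 to 0.135. DESeq2 called 10 rows there, SNORD118 among them. Among all features edgeR called 1.68%, and the share called by DESeq2 is not given here.

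The proportions among the U3 genes hardly moved while their level did. SNORD3A held 32.4 ± 1.67% (SD, n = 12) of the counts of the 5 core rows, SNORD3C 21.1 ± 0.863%, SNORD3B-1 16.7 ± 0.555%, SNORD3B-2 15.3 ± 0.451% and SNORD3D 14.6 ± 0.357%. The share of SNORD3A was 31.7 ± 3.11% in GFP (n = 3) and 32.7 ± 0.127% in LMNB2, and the widest spread within a group was that of GFP, from 28.8 to 35.0%. The U3 genes are near-identical copies, and how reads that map to several of them were counted is not given in the sources used here. The split among them is therefore uncertain, and the 5 loci are not independent measurements.

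The extended rows show how little of the U3 signal lay beyond the mature RNA. Outside the core rows, the 4 extended rows together held 63 to 111 counts per library. This was 0.419 ± 0.0679% (SD, n = 3) of the extended-row counts in GFP and 0.214 ± 0.0140% in LMNB2, with 0.344 ± 0.0353% for LMNA and 0.429 ± 0.0436% for LMNB1. Each LMNB2 library was below each library of the other groups. On the CPM scale the counts outside the core were 0.523 ± 0.0335 in GFP and 0.478 ± 0.0219 in LMNB2, whose ranges overlapped (0.484 to 0.544 and 0.454 to 0.497 CPM). The core rows of the same loci were 125.7 ± 13.4 CPM in GFP and 222.7 ± 5.05 in LMNB2. The difference in U3 thus lay within the core rows, and this comparison was chosen after its values were seen and was not tested.

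**Figure D2:**
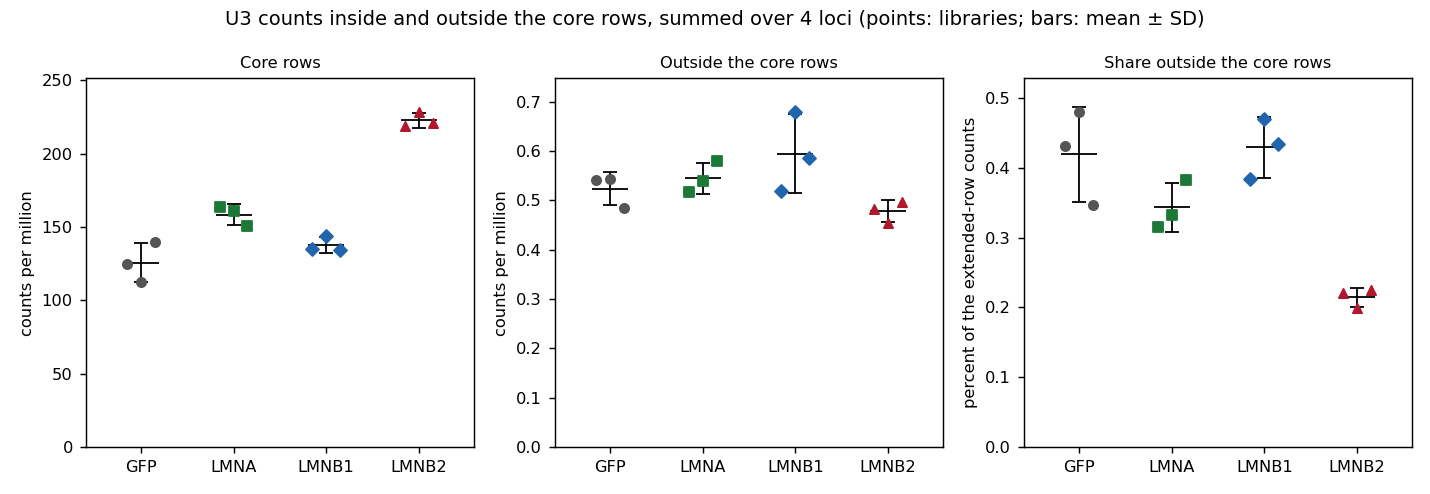
U3 CPM inside (left) and outside (middle) the core rows, summed over the 4 loci with an extended row, and the percent of the extended-row counts that lay outside (right). Points are libraries, bars the mean ± SD of 3 libraries, and the y axes start at 0. The LMNB2 libraries are highest in the core and lowest in the share outside, at 0.198 to 0.225%.

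Rows that overlap the U3 genes without bearing their names count the same reads. The core rows made up at least 98.6% of the counts of the lncRNA rows lnc-SLC5A10-3, lnc-GRAP-1 and AC007952.4 in each library. Elsewhere in the table, the 7 rows named SNORD3 with another letter had a mean of at most 3.67 counts per library, and the 59 other rows named U3 at most 15.8.

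U8 had the highest counts of the 3 RNAs, 46274 to 89382 per library. The labels do not give the size selection of the libraries, so counts need not rank RNAs of different length by their amount in the cell. Per kilobase of interval, the mean level of U8 in GFP was 2154 CPM, against 173.8 for SNORD3A and 153.3 for SNORD13. U8 ranked 32 among 384 rows named SNORD, where SNORD3A ranked 88 and SNORD13 ranked 94. U8 had 397.5, 436.6 and 354.7 CPM in GFP and 374.0, 376.6 and 364.9 in LMNB2. LMNA gave 499.1, 507.2 and 522.7 CPM, and the LMNB1 libraries 480.6, 489.9 and 446.1. The LMNA and LMNB1 libraries were all above GFP, and the LMNB2 libraries fell inside the GFP range. The log2 fold change over GFP was 0.36 (SE 0.22, edgeR adjusted p 0.901) in LMNA, 0.25 (SE 0.22, 0.886) in LMNB1 and -0.09 (SE 0.22, 0.851) in LMNB2. With total counts the last of these was 0.16, so its sign depended on the scaling. LMNB2 was below LMNA by 0.45 (SE 0.22) on the log2 scale, with an edgeR adjusted p of 0.309 and no overlap of the libraries. This difference was called by DESeq2 (-0.46, adjusted p 0.00335) and by edgeR with only the libraries compared (-0.47, adjusted p 0.00614), and under none of the other alternatives run. Against LMNB1, edgeR called U8 lower in LMNB2 with only the libraries compared (-0.35, adjusted p 0.00425) and under no other alternative. Without GFP library 1 the log2 fold change of U8 over GFP was 0.35, 0.25 and -0.10 in LMNA, LMNB1 and LMNB2, and without GFP library 3 it was 0.36, 0.24 and -0.12, none of them called.

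The U8 row lies within a LINC00324 lncRNA row, of whose counts it made up 64.8 to 75.0% per library. Counting did not separate strands: a LINC00324 row on the minus strand held the counts of the tRNA rows inside it on both strands, with 6 to 16 counts left over per library. Reads from TMEM107, whose span contains the U8 row, could also fall in that row, and their part was not tested.

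U13 had 2052 to 5578 counts per library and, relative to its mean, the widest spread of the 3 families within GFP. Its level was 37.4, 15.1 and 18.4 CPM in GFP and 26.9, 24.4 and 23.2 in LMNB2. The LMNA libraries had 34.6, 27.9 and 32.6 CPM, and the LMNB1 libraries 16.7, 20.3 and 19.4. GFP library 1 was the highest of all 12 libraries, whereas GFP libraries 2 and 3 were below every LMNA and LMNB2 library. The log2 fold change over GFP was 0.43 (SE 0.28, edgeR adjusted p 0.908) in LMNA, -0.33 (SE 0.28, 0.886) in LMNB1 and 0.07 (SE 0.28, 0.914) in LMNB2. Without GFP library 1 the values were 0.91, 0.16 and 0.55, none of them called, and without GFP library 3 the LMNB2 value was -0.04. Between lamins, LMNB1 was below LMNA by 0.75 (SE 0.28) on the log2 scale, with no overlap of the libraries and an edgeR adjusted p of 0.832. It was also below LMNB2 without overlap, by 0.40 (SE 0.28), with an edgeR adjusted p of 0.509. This second difference was called by edgeR with only the libraries compared (adjusted p 0.00658) and under no other alternative. The share of all features that separate 2 lamins in this way was not counted, here or for U8. An SRP RNA row of 133243 bp around SNORD13 took 97.1 to 98.8% of its counts from it. The 408 rows elsewhere that are named for U13 had at most a mean of 12.5 counts.

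**Figure D3:**
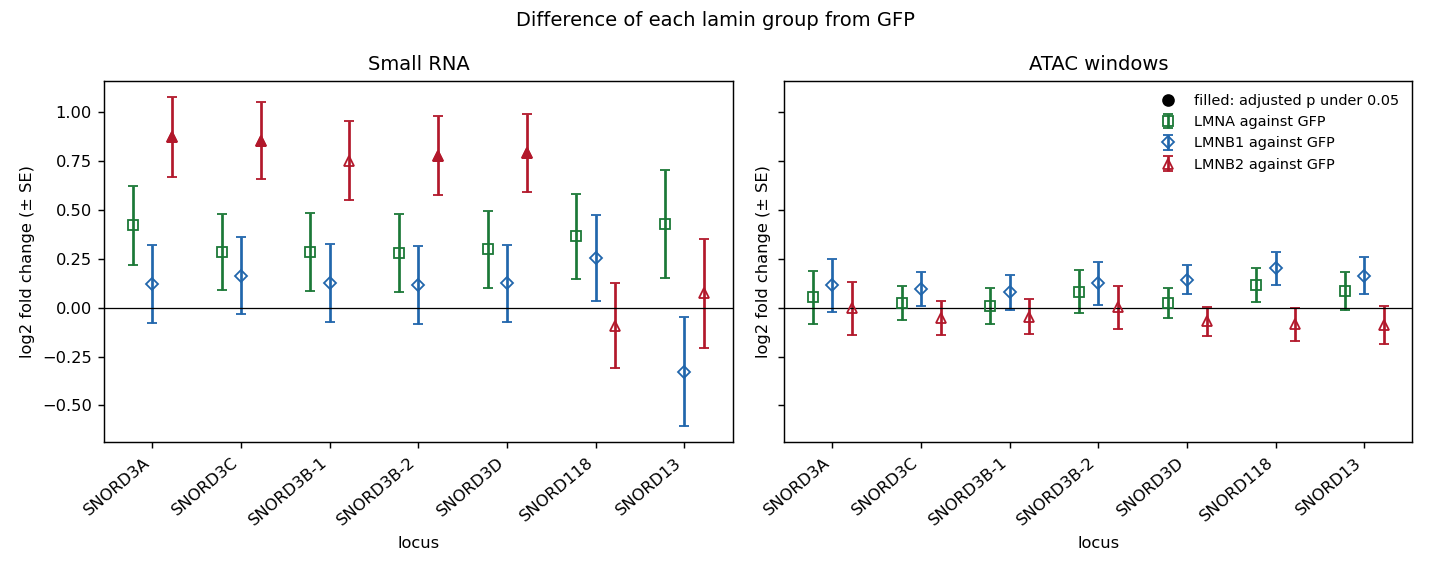
Log2 fold change over GFP (y axis, ± SE from edgeR) of the 7 loci (x axis) for LMNA, LMNB1 and LMNB2, in small RNA (left) and in ATAC windows (right). Filled symbols have an adjusted p under 0.05. They are found at SNORD3A, SNORD3C, SNORD3B-2 and SNORD3D in LMNB2 small RNA, and no ATAC value is past the threshold.

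Ratios within a library do not depend on the scaling between libraries. U8 over the mean of the 9 U3 rows, core and extended, was 13.2, 16.1 and 10.5 in the GFP libraries. It was 7.09, 6.84 and 6.85 in those of LMNB2. In the LMNA libraries it was 12.6, 13.04 and 14.4, and in those of LMNB1 14.8, 14.1 and 13.7. The LMNB2 libraries were the lowest and did not overlap any other group, and the geometric mean was 6.92 in LMNB2 against 13.04 in GFP. An exact permutation test over the 15400 ways to divide the 12 libraries into 4 groups, with the between-group F on the log2 ratio, gave p = 0.0141, and 0.0845 after Benjamini-Hochberg adjustment over the 6 ratios tested. Leaving out any 1 LMNB2 library gave the same exact permutation p. When 1 group alone stands apart, this p depends on how the other libraries divide. It therefore stays near this size however wide the gap is. The test cannot weigh the distance of LMNB2 from the rest, here or in the alternatives that follow, and no conclusion on it is drawn. With SNORD3A alone in place of the mean, the adjusted exact permutation p was 0.0475. Without GFP library 1 it was 0.0297, and without GFP library 2 0.0144. With the replicate number as a block the adjusted exact permutation p was 0.172, the highest of the alternatives.

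U13 over U3 had geometric means of 0.827 in LMNA, 0.720 in GFP, 0.563 in LMNB1 and 0.461 in LMNB2. GFP library 1, at 1.24, stood above all others, and the other 2 GFP libraries, at 0.555 and 0.542, lay among those of LMNB1. The exact permutation test gave p = 0.0776 (adjusted 0.155), and an adjusted value of 0.00935 without GFP library 1. U13 over U8 was 0.0552, 0.0620, 0.0397 and 0.0666 in GFP, LMNA, LMNB1 and LMNB2, with an exact permutation p of 0.169 (adjusted 0.253), and 0.0297 adjusted without that library. Both ratios crossed the threshold when that 1 library was left out.

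**Figure D4:**
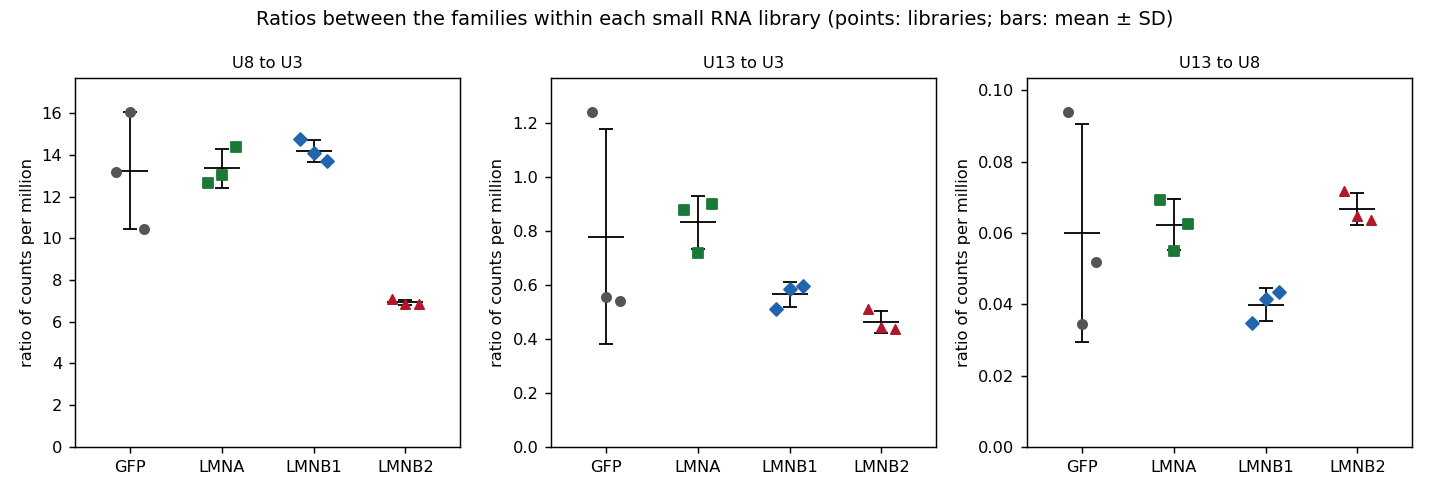
Ratios of CPM between U8, the mean of the 9 U3 rows and U13, within each small RNA library. The y axes start at 0 and the x axes give the 4 groups. Points are libraries and bars the mean ± SD of 3 libraries. U8 to U3 is between 6.84 and 7.09 in LMNB2 and at least 10.5 elsewhere, and GFP library 1 is the high point in both U13 ratios.

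Across the 12 small RNA libraries the 3 families did not follow one another closely. Pearson's r between log2 levels was -0.41 for U3 and U8, 0.29 for U3 and U13, and 0.15 for U8 and U13, as a description over libraries that share their scaling. Of 1679 other non-lncRNA features with at least 100 counts on average, the one most like U3 was SNORA67, an H/ACA snoRNA (r = 0.97), followed by a 5S rRNA row on chromosome 8, an SRP RNA row that contains it, a 5S rRNA row on chromosome X and SCARNA12, a guide RNA of Cajal bodies (r = 0.96). The closest to U8 were an SRP RNA row on chromosome 6 (r = 0.87), SNORD169, MIR19B1, SNORD1A and tRNA-Arg-TCG-4-1 (r = 0.84). The closest to U13 were SNORD46 (r = 0.97), SNORD35B, RNU6-1, SNORD53B and SNORD10 (r = 0.94).

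Other RNAs of ribosomal RNA processing were set beside U3 in the comparison of LMNB2 with GFP. Over all features, the median log2 fold change was -0.04 and 2.66% were called. Of the other RNAs that act in pre-rRNA cleavage, 9 of 10 rows were tested (SNORD14, SNORD22, SNORA73, SNORA63 and RMRP rows). Their median was 0.23, 8 of 9 were above 0, and 0 were called by edgeR, with 1 at an unadjusted p under 0.05 and 0 called by DESeq2. SNORD14A and SNORA73A had the highest log2 fold changes, 0.55 (SE 0.29) and 0.39 (SE 0.18), and SNORD14C and SNORD14E the lowest, -0.05 (SE 0.18) and 0.01 (SE 0.34). The rows of the ribosomal RNA transcript itself (18S, 28S, 5.8S and 45S) were all above 0, 15 of 15, with a median of 0.49. None of them was called by edgeR, with 3 at an unadjusted p under 0.05, and DESeq2 called 11. The rows are repeats of the same unit and share reads.

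Genes with the same kind of promoter were mixed. Of 29 rows of snRNA genes with a polymerase II promoter like that of U3, 23 were above 0 with a median of 0.16, and edgeR called 0, with 7 at an unadjusted p under 0.05, while DESeq2 called 6. The 6 RNU1-1 rows (U1) had log2 fold changes of 0.65 to 0.68, and RNU5F-1 and RNU5B-1 (U5) had -0.61 and -0.51. Of 17 rows with the related polymerase III promoter, 7 were above 0, the median was -0.09, and edgeR called 0, with 2 at an unadjusted p under 0.05 and 0 called by DESeq2. RNY1 had 0.55 and RNU6ATAC -0.25. With total counts in place of TMM scaling, 15 of the 17 were above 0 and the median was 0.26.

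All snoRNAs other than the members were counted next, so the snoRNAs among the cleavage RNAs enter again. Most are processed from introns, and the box C/D rows had a median below 0. Of 184 tested rows (373 in the table), 57 were above 0, with a median of -0.21, or 107 above 0 and a median of 0.09 with total counts. SNORD35A rose by 0.78 and SNORD89 by 0.73, and SNORD49B fell by 1.01, all on the log2 scale with an edgeR adjusted p of 0.0418, 0.0246 and 0.0419. Of 131 tested H/ACA box rows (195 in the table), 98 were above 0 with a median of 0.26, 14 rose and 1 fell. SNORA16A rose by 1.14 on the log2 scale, from 5.06 ± 0.496 to 11.2 ± 1.29 CPM (SD, n = 3), SNORA67 rose by 1.00, and SNORA69 fell by 0.78, with edgeR adjusted p of 0.00764, 0.0221 and 0.0384. With total counts the median over all features moved from -0.04 to 0.19. The medians of the lists above 0 were then 0.39 for the other cleavage RNAs, 0.70 for the ribosomal RNA rows, 0.46 for the polymerase II snRNA rows and 0.52 for the H/ACA rows. The calls moved with single libraries: without GFP library 3 there were 38 among the box C/D rows and 31 among the H/ACA rows, and without LMNB2 library 2 there were 0 and 1.

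In the ATAC data the windows on the member loci, which reach beyond each row on both sides, held 488 to 7838 counts at the core rows. Each of the 7 core windows stood above its surroundings. Per base, the mean over 12 libraries was 34.0 ± 3.37 times (SD) that of the 5000 bp flanks at SNORD13, 25.4 ± 1.45 at SNORD3D, 20.8 ± 1.30 at SNORD3A, 18.5 ± 1.85 at SNORD118, 15.2 ± 0.724 at SNORD3B-2, 6.28 ± 0.210 at SNORD3B-1 and 4.79 ± 0.184 at SNORD3C. SNORD3C and SNORD3B-1, the lowest, each have a stronger U3 window within their flanks, SNORD3A and SNORD3B-2, and the converse holds for those.

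The share of ATAC counts in mitochondrial windows was lower in every LMNB1 and LMNB2 library than in every GFP and LMNA library. It was 39.9 to 47.5% in GFP, 39.4 to 44.1% in LMNA, 32.8 to 34.1% in LMNB1 and 24.5 to 30.7% in LMNB2. With those windows left out before scaling, edgeR still called 0 of the 11 windows in each comparison, and the log2 fold change of SNORD3A over GFP was 0.057, 0.11 and -0.00015 for LMNA, LMNB1 and LMNB2. The 4 groups overlapped at 4 of the 5 U3 windows. SNORD3A had 27.95, 23.4 and 21.9 CPM in GFP and 25.5, 20.6 and 26.9 in LMNB2. The LMNA libraries had 27.5, 26.6 and 21.8 CPM, and the LMNB1 libraries 28.6, 26.4 and 24.2. No group stood apart, and the log2 fold change over GFP was 0.05, 0.11 and -0.0042 for LMNA, LMNB1 and LMNB2 (SE 0.14 each). Over the 7 loci it was 0.01 to 0.12 in LMNA, 0.08 to 0.20 in LMNB1 and -0.09 to 0.00 in LMNB2. In each comparison edgeR called 0 of the 11 windows, and so did DESeq2. The shares called among all 163786 windows were 0.000611%, 0.00305% and 0.00244% for LMNA, LMNB1 and LMNB2 against GFP, 0.223% for LMNB1 against LMNA, 0.00305% for LMNB2 against LMNA and for LMNB2 against LMNB1, and 0.0421% in the joint test. At an unadjusted p under 0.05 the windows were 0, 1 and 0 against GFP, 0, 1 and 4 between lamins in the same order, and 1 jointly.

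**Figure D5:**
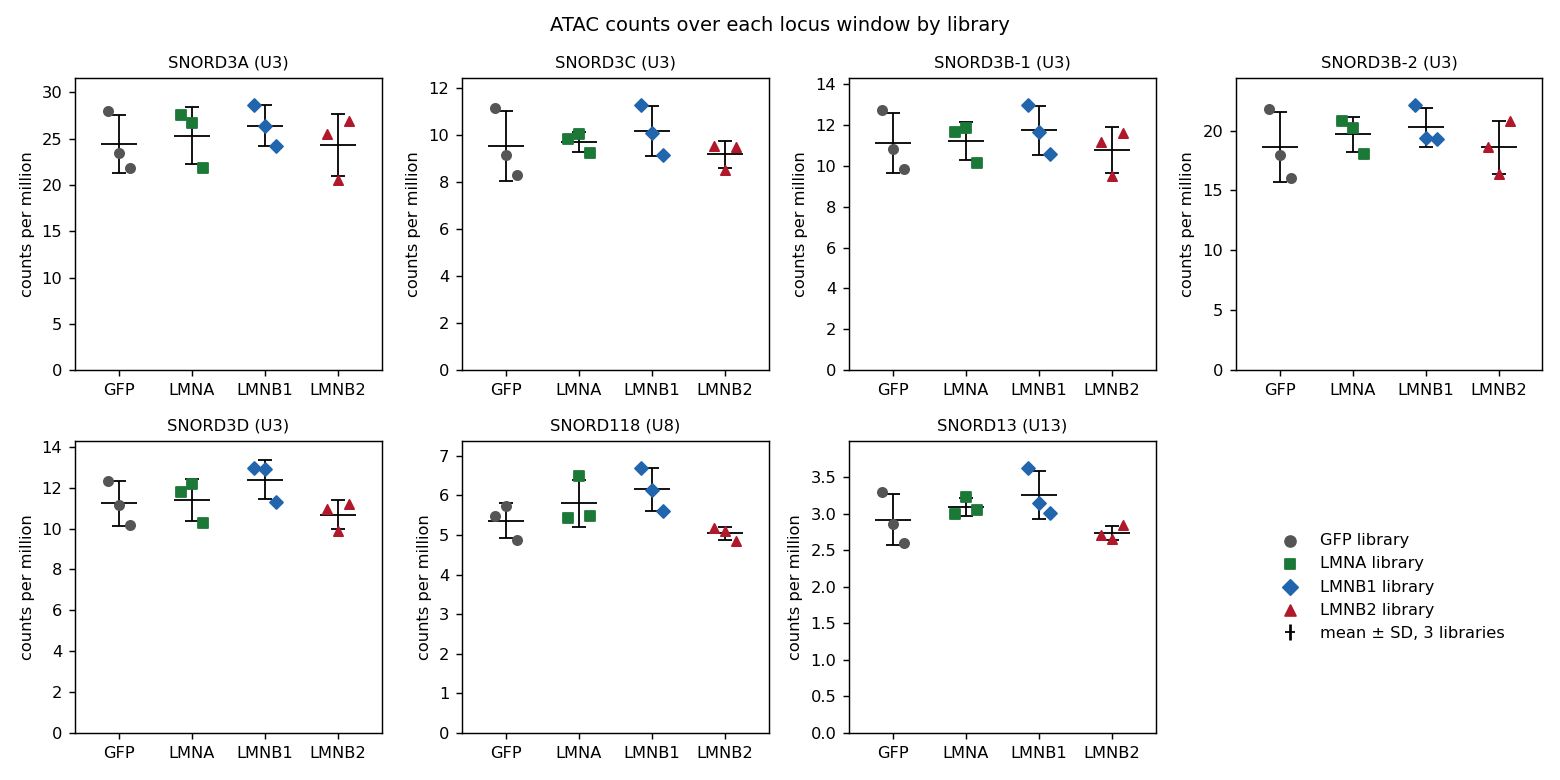
ATAC CPM (y axis, from 0) over the windows on the 7 loci in the 4 groups (x axis). Points are libraries and bars the mean ± SD of 3 libraries. The groups overlap at SNORD3A, where all 12 libraries lie between 20.6 and 28.6 CPM, and the LMNB1 libraries of SNORD118 lie above those of LMNB2.

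The window on U8 differed most between 2 lamins. SNORD118 had 5.48, 5.72 and 4.87 CPM in GFP and 5.17, 5.11 and 4.85 in LMNB2. The LMNA libraries had 5.44, 6.49 and 5.49 CPM, and the LMNB1 libraries 6.70, 6.15 and 5.62. LMNB2 was below LMNA and LMNB1 with no overlap, and GFP overlapped all 3 lamins. LMNB2 was below LMNB1 by 0.29 (SE 0.08) on the log2 scale, with an unadjusted p of 0.0017 from edgeR and an adjusted p of 0.905. SNORD13 had 3.30, 2.86 and 2.60 CPM in GFP and 2.71, 2.66 and 2.85 in LMNB2, with 3.00, 3.23 and 3.05 for the LMNA libraries and 3.63, 3.15 and 3.00 for those of LMNB1. LMNB2 was below LMNA and LMNB1 there too, by 0.25 (SE 0.09) against LMNB1 with an edgeR adjusted p of 0.933. At SNORD3D the LMNB2 libraries lay wholly below those of LMNB1, by 0.21 (SE 0.07) on the log2 scale, with an edgeR adjusted p of 0.933 as well. The share of all windows that separate 2 groups in this way was not counted, so these separations have no background to be set against.

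Relative to the 5000 bp flanks, the windows on the 9 U3 rows together were 9.73 times as high in GFP and 9.74 times in LMNB2. LMNA was at 9.68 and LMNB1 at 9.72, with an exact permutation p of 0.972 (adjusted 0.972). The flanks of SNORD3A, SNORD3C, SNORD3B-1 and SNORD3B-2 each hold another U3 window. A change shared by the U3 windows would therefore enter both sides of this ratio, and the test could miss it. The U8 window was 17.6, 19.5, 19.99 and 16.6 times its flanks in GFP, LMNA, LMNB1 and LMNB2, with an exact permutation p of 0.0637 (adjusted 0.155, and 0.0442 without GFP library 2). The U13 window was 32.9, 34.5, 37.0 and 31.3 times its flanks in the same order, with an exact permutation p of 0.227 (adjusted 0.272). Set beside the small RNA values, U3 was 1.77 times as high in LMNB2 as in GFP in RNA. Its windows stood 9.74 and 9.73 times above their flanks in the same groups, with the limit of shared flanks given above.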

How the data were processed

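The authors deposited raw counts per annotated feature for small RNA and per window for ATAC-seq, on GRCh38 per the submitters' processing notes. The aligner, counter, strand setting and treatment of multi-mapping or duplicate reads are not given in the sources used here. Groups came from the sample titles. The batch label is constant within an assay. Members, gene lists and tests were chosen with earlier results of these data known. In each assay all 12 libraries were fitted in edgeR 4.0.16 (R 4.3.3) with filterByExpr, TMM scaling and robust quasi-likelihood dispersions, and p-values were adjusted by Benjamini-Hochberg over 33893 features or 163786 windows. The prior count was 2, and the SE is the absolute log2 fold change over the root of F. Shares called among all features or windows are those of the main edgeR fit. Every member row was named. Of each list, called members or the most extreme values were. On simulated data for LMNB2 against GFP, 20.2% of 2-fold and 96% of 4-fold changes were recovered among 31948 small RNA features, and 79% and 100% among 161556 windows. Alternatives were DESeq2 1.42.0 and its size factors, total counts, 2 other count filters, subsets of features or libraries, a replicate block and leaving out each library.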

Additional observations from a re-analysis of the deposited data

How the results depend on the processing

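Of the U3 difference between LMNB2 and GFP in small RNA, the direction held at 5 loci under 20 alternatives each, and the calls did not. The loci are near-identical copies and the alternatives share libraries, so these fits are not independent support for the direction. Against 7 of 11 member rows called in the main analysis, the count was 0 with total counts, 0 with only the libraries compared and 4 with the replicate block, and leaving out 1 library gave 0 to 9. In the other comparisons, with 0 rows called in the main analysis, DESeq2 called 1 in LMNA against GFP, 5 in LMNB2 against LMNA, 9 in LMNB2 against LMNB1 and 10 jointly. Without lncRNA rows, 9 were called in LMNB2 against LMNA, in LMNB2 against LMNB1 and jointly. With only the libraries compared, 1 was called in LMNB1 against LMNA, 10 in LMNB2 against LMNA and 11 in LMNB2 against LMNB1. Without a count filter, 4 were called jointly. Leaving out 1 library gave 0 to 2 in LMNB2 against LMNA (2 without GFP library 3), 0 to 9 in LMNB2 against LMNB1 (8, 1 and 9 without GFP libraries 1, 2 and 3) and 0 to 9 jointly (7 and 9 without GFP libraries 1 and 3). The shares of all features called under these settings are not given here, so the counts do not show a response particular to the members. The cause of the shifts in the counts was not tested.

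The adjusted exact permutation p of U8 over U3 was 0.0475 with SNORD3A alone and 0.0144 to 0.0935 with a library left out. It was 0.172 with the replicate block. These values have the limit given above for a test in which 1 group alone stands apart. That of U13 over U3 was 0.00935 to 0.305, of U13 over U8 0.0297 to 0.479, both lowest without GFP library 1, and that of the U8 window over its flanks 0.0442 to 0.256, lowest without GFP library 2. With total counts the median log2 fold change of LMNB2 over GFP was 0.19 in small RNA and 0.11 in ATAC over all features, and some values near 0 changed sign. In small RNA, SNORD118 was at 0.16. In ATAC, SNORD118 was at 0.025, SNORD3B-1 at 0.058, SNORD3D at 0.036, SNORD3A at 0.10, SNORD3C at 0.050 and SNORD13 at 0.017. SNORD3B-2 in ATAC was at -0.00042 with DESeq2's size factors, -0.0027 with a mean of at least 10 counts and -0.00080 by DESeq2, and SNORD3A at 0.0026 with the replicate block.

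Leaving out a library moved small RNA SNORD13 from -0.56 to 0.16 for LMNB1. For LMNB2 it moved it from -0.17 to 0.55. In ATAC LMNA it moved SNORD3B-1 from -0.074 to 0.11, SNORD3B-2 from -0.015 to 0.21, SNORD3D from -0.045 to 0.095, SNORD3A from -0.021 to 0.16 and SNORD3C from -0.068 to 0.15. In ATAC LMNB1 it moved SNORD3B-1 from -0.0034 to 0.19. In ATAC LMNB2 it moved SNORD3B-1 from -0.13 to 0.060, SNORD3B-2 from -0.095 to 0.13, SNORD3D from -0.14 to 0.0033, SNORD3A from -0.084 to 0.10, SNORD3C from -0.14 to 0.075 and SNORD13 from -0.17 to 0.0056. No ATAC row was called under any of these alternatives. Deviations from the group mean were weakly correlated between libraries with the same replicate number. The mean r was 0.04 in small RNA and 0.02 in ATAC, over 18 pairs each, 2 of them over 0.1. Between libraries with different numbers it was -0.02 and -0.008, over 36 pairs each, 0 of them over 0.1. Whether the numbers pair the libraries is therefore not settled. The replicate block changed no other count of member rows. Of the lists compared in LMNB2 against GFP, other box C/D rows had 3 calls, 13 with DESeq2 and 0 with total counts or with only the libraries compared, and H/ACA rows had 15, 18, 4 and 0 in the same order. With 1 library left out the counts were 0 to 38 and 1 to 31, both highest without GFP library 3. The box C/D count was 0 without GFP library 2 or any 1 LMNB2 library and 1 or 2 without any 1 LMNA or LMNB1 library, and the H/ACA count was 7 without GFP library 2 and 6, 1 and 3 without LMNB2 libraries 1, 2 and 3. The lowest depth behind a member was 488 counts, for the U13 ATAC window.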
